A study of Mus musculus with 10 samples.

Results

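The genes examined here encode the machinery of regulated exocytosis, the release of stored vesicle or granule content on a calcium signal. They were chosen by a rule on symbols that uses no measured value, though earlier results of these data were known when it was set. It takes the numbered or lettered members of the Syt, Vamp, Stx, Stxbp, Cplx and Sv2 families, every symbol that starts with Rab3 or Unc13, and Snap25, Syp, Rims1, Rims2, Ptprn and Ptprn2. This gave 78 genes, with 99 probes, of the 18069 genes that have a probe annotated with a single symbol, and each gene was represented by whichever of its probes was brightest in mean log2 level over the 10 arrays. Because the rule takes every symbol starting with Rab3, it also takes 11 genes from Rab30 to Rab39b, which are Rab GTPases outside the Rab3 subfamily and are described separately. Vamp2 is not among the 78, since its probe is annotated with a second gene as well.

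Total RNA was hybridized to 1-colour CodeLink Mouse Whole Genome arrays, with 5 groups of 2 arrays. Dox(−) and Dox(+) embryoid bodies (EBs) were both made from tet-pdx1/ngn3 cells, 1 engineered line of Ainv18 mouse embryonic stem (ES) cells in which doxycycline (Dox) drives Pdx1 and Ngn3 from a bicistronic cassette at the hprt locus, and both were harvested on day 13. Both EB groups received activin A, BMP4 and bFGF in serum-free medium, and only Dox(+) EBs received Dox, at 1 µg/ml from day 4. The references were βTC6 cells, a mouse insulinoma line, whole islets, whose age the labels do not give, and whole pancreas from E15.5 embryos. The paper's text calls the islets adult, but its supplementary list of genes heads their column E15.5. The source entry of the EB labels gives the inducible genes as Pdx1 and Ngn3, and so does the paper, but another entry names activated Notch4. The labels count the arrays of a group as biological replicates without saying if separate cultures or dissections lie behind them, so that each p-value reflects nothing more than how far these samples spread, and that spread may be technical. EBs, islets and pancreas are mixtures of cells, and in them fewer cells of a type and less RNA per cell cannot be told apart.

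As background, secretory vesicles dock at the plasma membrane with the help of Rab3 proteins and their effectors, and are made ready for release by priming factors of the Unc13 (Munc13) family. Fusion is driven by SNARE proteins: a vesicle SNARE (Vamp) zips together with target membrane SNAREs (syntaxins and Snap25), under the control of Stxbp proteins and complexins. Synaptotagmins that bind calcium trigger the last step, and neurons and islet endocrine cells are known to use overlapping sets of these proteins.

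Levels are scaled intensities on which the median probe of each array is 1, floored at 0.27 and log2 transformed, and they were compared probe by probe with limma over all 10 arrays. A gene is said to rise, fall or differ only at a Benjamini-Hochberg adjusted p under 0.05 over all 28259 probes tested. Between 65.98% and 74.3% of the probes of an array were above background, and 60 to 114 were saturated. Of the 78 genes, 76 were tested, 52 were above background on all 10 arrays, and Cplx4 and Syt10 were at background on every array and could not be tested. Marker genes moved with Dox. The summed level of 13 neuronal markers measured on every array was 5.86 to 6.08 in Dox(−) EBs, where 12 of the 15 markers with a probe were at background on both arrays, and 203 to 241 in Dox(+) EBs, where 0 were, against 252 to 272 in βTC6 cells, 45.5 to 79.9 in islets and 18.9 to 20.4 in E15.5 pancreas. The sum of 7 endocrine granule markers went from 13.6 and 14.9 in Dox(−) EBs to 356 and 406 in Dox(+) EBs, against 1051 to 1057 in βTC6 cells, 1082 to 1179 in islets and 57.1 to 58.3 in E15.5 pancreas. The sum of 8 platelet and megakaryocyte markers went the other way, from 231 and 248 to 18.4 and 22.3. Many genes of the neuronal and endocrine granule lists are among those the study picked from these arrays. The rise of those sums is therefore not independent evidence. Islet arrays also carried acinar markers, with a sum of 2712 to 3137 against 1375 to 1441 in E15.5 pancreas. The part of these cell types in the results was not tested.

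Dox raised more of the exocytosis genes than it lowered. Of the 76 tested, 40 rose (52.6%), 11 fell (14.5%) and 25 did not pass the test, while of all 28193 probes tested in this comparison 20.7% were higher and 22.5% lower, and of all 15747 genes at 1 probe each 25% were higher and 23.5% lower. The median log2 difference was 0.46 over the exocytosis genes and -0.03 over all probes. Without the 11 Rab30 to Rab39b genes, 33 of 65 rose and 10 fell. Synaptotagmins, Rab3 proteins, vesicle membrane proteins and granule phosphatase-like proteins held 9 of the 12 largest rises, and the rest were Snap25, Rab37 and Cplx1. The background shares show how many probes of any kind the same test calls, and no test was made of the list as a whole.

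**Figure D1:**
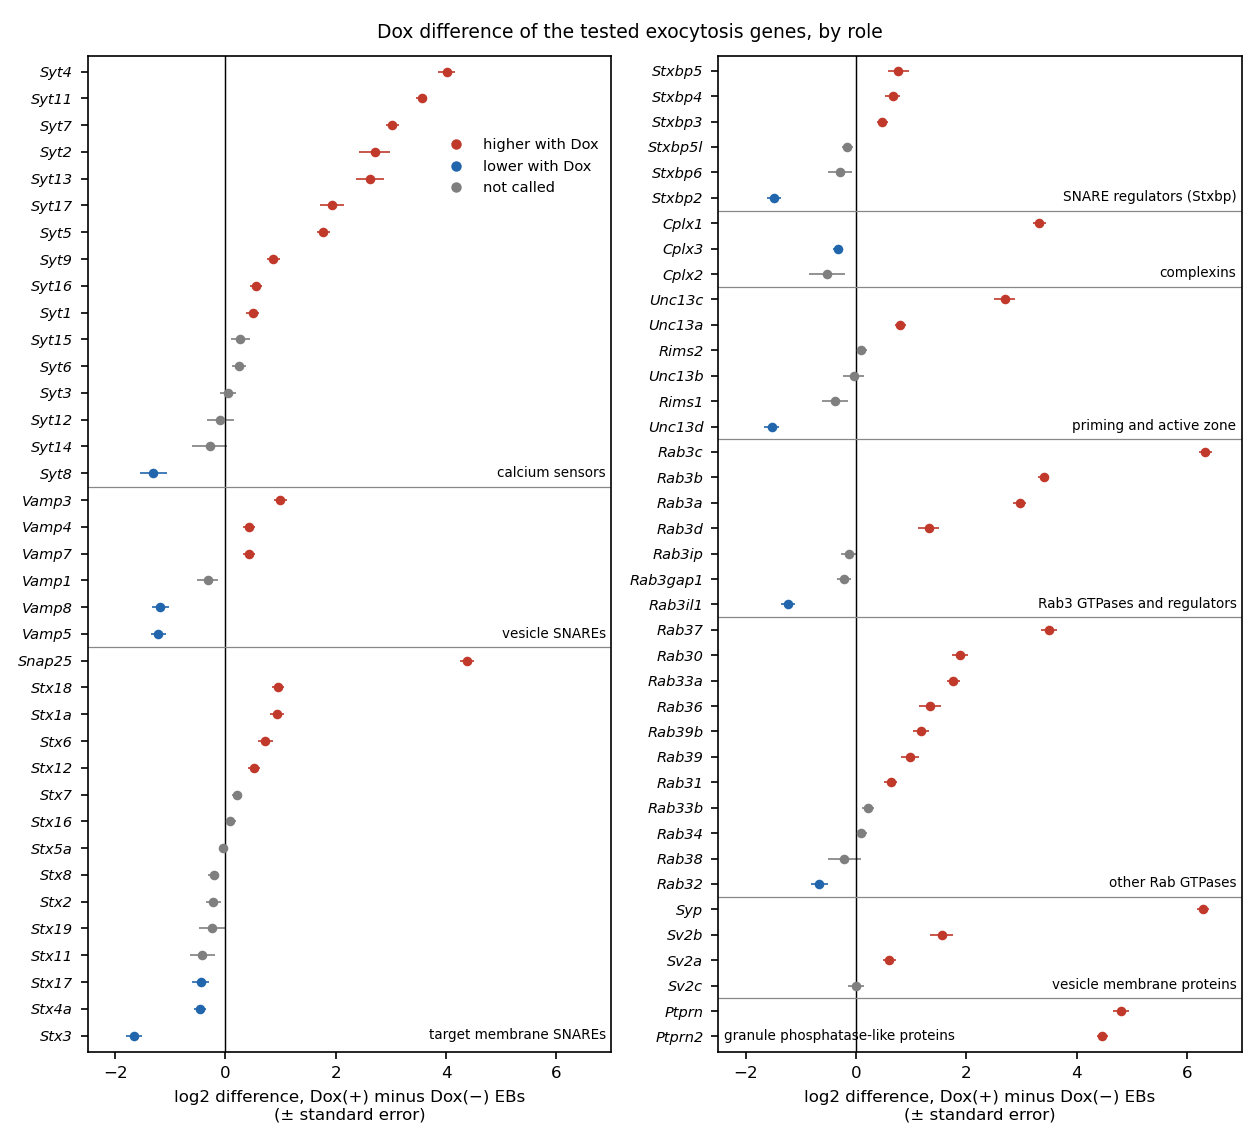
Log2 difference of Dox(+) minus Dox(−) EBs for the 76 tested exocytosis genes, grouped by role, with bars of 1 standard error from limma and 2 arrays per group. The role named calcium sensors holds all tested synaptotagmins, including those that do not bind calcium. Red genes were higher, blue genes lower and grey genes not called at an adjusted p under 0.05, and Rab3c and Syp lie farthest to the right at 6.33 and 6.30.

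Of the 16 tested synaptotagmins, a family that holds calcium sensors and also members that do not bind calcium, 10 rose, 1 fell and 5 did not pass the test. Syt4, a synaptotagmin of dense-core vesicles, was at 0.368 and 0.27 in Dox(−) EBs, the second at background, and at 5.11 and 5.08 in Dox(+) EBs (log2 difference 4.02, standard error 0.15, adjusted p = 1.31e-08 by limma). The βTC6 arrays read 14.7 and 13.2, the islet arrays 21.2 and 18.3 and the pancreas arrays 0.390 and 0.346, so that Dox(+) EBs stood apart from both the Dox(−) EBs and the pancreas but below both endocrine references. Syt7, a high-affinity sensor of insulin granule release, read 1.14 on each Dox(−) array and 9.54 and 9.02 with Dox (log2 difference 3.03, standard error 0.12, adjusted p = 1.81e-08 by limma). Its pancreas levels were 1.47 and 1.56 and its βTC6 levels 6.77 and 5.38, lower than Dox(+) EBs at this probe and higher at its dimmer probe. Its islet levels were 9.69 and 10.6, and the difference between Dox(+) EBs and islets, -0.13 ± 0.12 on the log2 scale, did not pass the test, while its dimmer probe read 0.491 and 0.482 in Dox(+) EBs and 1.11 and 1.04 in islets. Syt11, a family member that does not bind calcium, was at 1.10 and 1.17 without Dox and at 14.5 and 12.3 with Dox, an 11.8-fold rise. Both Dox(+) arrays read above both islet arrays for Syt11, at 6.00 and 5.63, around the βTC6 arrays, at 11.9 and 12.0, and above the pancreas arrays, at 0.978 and 0.992.

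The other rises among synaptotagmins were Syt2 (6.53-fold), Syt13 (at least 6.18-fold, with both Dox(−) arrays at background), Syt17 (at least 3.82-fold, likewise), Syt5 (3.42-fold), Syt9 (1.83-fold), Syt16 (1.46-fold) and Syt1 (1.41-fold). Syt1, the main fast sensor of synapses, read 0.970 and 0.886 without Dox and 1.34 and 1.27 with Dox, so the gene best known for neuronal release was among the smallest rises. The rises of Syt2 and Syt9 were not seen at their other, dimmer probes, that of Syt2 with only 1 measured Dox(+) array. Syt3, Syt6, Syt12, Syt14 and Syt15 did not pass the test between the EB groups, with log2 differences from -0.28 to 0.27. Syt15 was at 8.62 and 8.12 in βTC6 cells and between 0.955 and 1.46 on the other 8 arrays, but its dimmer probe showed another order, at background on all EB and βTC6 arrays with islet readings of 0.671 and 0.588 and pancreas readings of 1.13 and 1.04.

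Of the vesicle SNAREs, Vamp3, Vamp4 and Vamp7 rose, Vamp5 and Vamp8 fell and Vamp1 did not pass the test. Vamp3, a broadly used SNARE of recycling endosomes, was at 6.29 and 6.57 without Dox and at 13.8 and 11.9 with Dox, a 2.00-fold rise, and its Dox(+) levels lay near those of E15.5 pancreas, at 12.2 and 12.1. Vamp4 and Vamp7, SNAREs of the Golgi and of late endosomes and lysosomes, rose 1.35-fold each. Vamp1, a synaptic SNARE, stayed under the array median on all 10 arrays, at 0.423 to 0.874.

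Of the target membrane SNAREs, 5 of 15 rose, 3 fell and 7 did not pass the test. Snap25, which neurons and β cells use for release, was at 1.77 and 1.95 without Dox and 39.7 and 37.5 with Dox, and βTC6 arrays read 87.9 and 121, islet arrays 44.2 and 45.4 and pancreas arrays 5.498 and 5.92. All Dox(+) levels were above all Dox(−) and pancreas levels and close under the islet levels. The rise was 20.8-fold (log2 difference 4.38, standard error 0.13, adjusted p = 2.51e-09 by limma), and the difference from islets, -0.21 ± 0.13, did not pass the test. The other Snap25 probe, near the floor in EBs, had a log2 difference of 0.35 that did not pass (adjusted p = 0.157 by limma), and read 0.408 and 0.292 in Dox(+) EBs against 1.18 and 1.34 in islets. Stx1a, the plasma membrane syntaxin of regulated release, read low and rose 1.91-fold, from 1.05 and 0.971 to 2.10 and 1.79, against 0.897 and 0.946 in islets. Stx18, a syntaxin of the endoplasmic reticulum, rose 1.93-fold, and Stx6 and Stx12, syntaxins of the trans-Golgi and endosomes, rose 1.65-fold and 1.43-fold.

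The target membrane SNAREs that fell were Stx3, Stx4a and Stx17. Stx3, a syntaxin of apical membranes and granules, was at 20.3 and 18.9 without Dox and at 7.06 and 5.497 with Dox (3.15-fold lower, a log2 difference of -1.66, standard error 0.14, adjusted p = 5.9e-06 by limma). This was the largest fall among the exocytosis genes and was also seen at its other probe, where only 1 Dox(+) array was measured. Dox(+) levels of Stx3 lay among those of islets, at 7.01 and 6.25, and E15.5 pancreas, at 5.37 and 5.44, and below the βTC6 levels of 9.47 and 12.1. Stx4a, a plasma membrane syntaxin found in many cells, fell 1.37-fold. Stx17, a syntaxin of autophagosomes, fell 1.36-fold against 1 measured Dox(−) array.

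Among the SNARE regulators, Stxbp3, Stxbp4 and Stxbp5 rose 1.40-fold, 1.59-fold and 1.71-fold, Stxbp2 fell and Stxbp5l and Stxbp6 did not pass the test. Stxbp3 (Munc18c) acts with plasma membrane syntaxins, and Stxbp5, or tomosyn, binds syntaxin and Snap25 and holds back fusion. Its paralogue Stxbp5l gave the largest difference between Dox(+) EBs and a reference: its probe read 2.02 on each Dox(−) array, 1.86 and 1.77 with Dox and 2.43 and 2.89 in E15.5 pancreas, but 34.6 and 38.2 in the βTC6 line and 163 and 159.8 in islets. Dox(+) EBs were thus 89.1-fold below islets (log2 difference -6.48, standard error 0.10, adjusted p = 2.45e-11 by limma). The gene has 3 other probes, and these did not show this difference: in islets they read 2.00 and 2.04, 2.03 and 1.78, and 0.27 and 0.293. Which of the 4 probes follows the transcript was not tested.

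Of the complexins, which clamp and then assist the assembled SNARE complex, Cplx1 rose, Cplx3 fell slightly, Cplx2 did not pass the test and Cplx4 was at background. Cplx1 was at 0.698 and 0.682 without Dox and at 7.27 and 6.59 with Dox, a 10.0-fold rise (log2 difference 3.33, standard error 0.12, adjusted p = 9.97e-09 by limma). Every other array lay below the Dox(+) arrays, with 1.33 and 1.23 in both βTC6 cells and islets and 0.576 and 0.545 in E15.5 pancreas. Dox(+) EBs were 5.42-fold above βTC6 cells and 5.41-fold above islets. Cplx2, the other main complexin of neuroendocrine cells, had Dox(+) arrays as far apart as 3.73 and 7.96, and its Dox difference of -0.52 ± 0.33 did not pass the test. Cplx3, a complexin of the retina, fell 1.25-fold from 20.5 and 19.8 to 16.9 and 15.3, while its other probe did not pass the test.

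Among the priming factors, Unc13a and Unc13c rose, Unc13d fell and Unc13b did not pass the test. Unc13c, a Munc13 of the brain, was at 0.782 and 0.861 without Dox, at 5.61 and 5.04 with Dox, at 1.43 and 1.83 in the βTC6 line, at background on both islet arrays and at 0.375 and 0.27 in E15.5 pancreas. The Dox(+) arrays were the highest of all 10, and stood at least 19.7-fold above islets (log2 difference 4.30, standard error 0.18, adjusted p = 9.64e-09 by limma). Unc13a, the Munc13 used for priming in neurons and β cells, showed another order: 2.98 and 2.99 without Dox, 5.17 and 5.25 with Dox, 6.06 and 5.53 in the βTC6 line, 2.47 and 2.34 in E15.5 pancreas and 44.3 and 39.8 in islets. Dox raised it 1.74-fold (log2 difference 0.80, standard error 0.10, adjusted p = 6.53e-05 by limma), and Dox(+) EBs stayed 8.06-fold below islets. Neither active zone scaffold passed the test with Dox. Rims2, the Rim of β cells, was at 9.52 and 9.89 without Dox and at 11.3 and 9.47 with Dox (log2 difference 0.10, standard error 0.10, adjusted p = 0.493 by limma), against islet readings of 45.6 and 42.7 and pancreas readings of 42.8 and 40.2. Its βTC6 readings were 8.62 and 8.23. The other, dimmer Rims2 probe did not show the islet and pancreas levels: it read 0.2818 and 0.2909 with Dox, 0.27 and 0.427 in islets and 0.27 on both pancreas arrays. Rims1, the main Rim of synapses, was near the floor on all arrays, at 0.27 to 0.498.

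The Rab3 proteins tether vesicles before fusion, and all 4 rose. Rab3c was at background without Dox and reached 23.2 and 20.4 with Dox, a rise of at least 79.4-fold (log2 difference 6.33, standard error 0.12, adjusted p = 8.42e-11 by limma), beside βTC6 readings of 12.4 and 14.6, islet readings of 6.28 and 5.98 and pancreas readings of 0.697 and 0.723. Its Dox(+) arrays were the highest of all 10, but at its dimmer probe, which rose from the floor to 0.674 and 0.623, the βTC6 arrays were higher, at 2.647 and 3.97. Rab3b was at 0.828 and 0.712 without Dox and at 7.75 and 8.51 with Dox, a 10.6-fold rise, while βTC6 arrays read 21.6 and 23.0, islet arrays 22.3 and 21.3 and pancreas arrays 2.40 and 2.54. Rab3a, the most abundant Rab3 of synaptic vesicles, was at 2.61 and 2.96 without Dox and at 23.4 and 20.3 with Dox, a 7.83-fold rise to between the islet levels, 15.5004 and 16.8, and the βTC6 levels, 35.1 and 36.1, with the pancreas at 1.97 and 2.27. Rab3d, which is known from zymogen granules, was the weakest, at least 2.496-fold higher with Dox and still at 0.917 and 0.705. In Dox(+) EBs, therefore, Rab3c read above its islet level, Rab3a slightly above, and Rab3b and Rab3d below.

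Of the genes that act on Rab3 proteins 1 fell and the other two did not pass the test. Rab3il1, which encodes an exchange factor, was at 3.94 and 3.61 without Dox and at 1.72 and 1.51 with Dox (2.34-fold lower, a log2 difference of -1.23, standard error 0.13, adjusted p = 2.84e-05 by limma). The references read 1.33 and 1.28 on βTC6 arrays, 0.538 and 0.490 on islet arrays and 1.13 and 1.01 on pancreas arrays. A dimmer probe, near the floor, did not pass the test with Dox. Rab3ip, another exchange factor, and Rab3gap1, part of the GTPase-activating complex, did not pass, with log2 differences of -0.13 ± 0.14 and -0.22 ± 0.13.

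Of the vesicle membrane proteins, Syp, Sv2a and Sv2b rose and Sv2c was at background on all EB arrays. Syp, which encodes synaptophysin, an abundant protein of synaptic vesicles and of small vesicles in endocrine cells, was at 0.477 and 0.548 without Dox and 42.9 and 37.6 with Dox, and βTC6 arrays read 136 and 143, islet arrays 83.9 and 72.7 and pancreas arrays 5.77 and 6.33. The groups did not overlap, and the rise was 78.6-fold (log2 difference 6.30, standard error 0.11, adjusted p = 7.14e-11 by limma). Sv2 proteins are vesicle glycoproteins that help prime vesicles. Sv2a rose 1.52-fold, from 1.40 and 1.57 to 2.31 and 2.20, against 5.96 and 6.11 in islets. Sv2b was at background on both Dox(−) arrays and at 0.907 and 0.693 with Dox, at least 2.89-fold higher but 27.3-fold under βTC6 cells, where it was at 27.5 and 17.1, and it read 2.73 and 2.28 on islet arrays and 0.532 and 0.495 on pancreas arrays. Sv2c was above background in βTC6 cells, at 2.53 and 2.57, and in islets, at 0.447 and 0.505, and at the floor on the other 6 arrays.

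The granule phosphatase-like genes Ptprn (IA-2) and Ptprn2 (phogrin) encode membrane proteins of dense-core granules and are known as autoantigens in type 1 diabetes. Ptprn was at 2.604 and 1.85 without Dox and 68.2 and 55.9 with Dox, and βTC6 arrays read 167 and 172, islet arrays 111 and 107 and both pancreas arrays 5.14. It rose 28.1-fold (log2 difference 4.81, standard error 0.15, adjusted p = 2.35e-09 by limma) and stayed 1.76-fold below islets. Ptprn2 was at 3.45 and 3.42 without Dox and at 85.4 and 67.8 with Dox, a 22.1-fold rise (log2 difference 4.47, standard error 0.11, adjusted p = 4.02e-10 by limma) that also passed at its other probe. Its islet arrays, at 262 and 244, were saturated, so Dox(+) EBs lay at least 3.32-fold below islets, its βTC6 arrays were at 271 and 268, and E15.5 pancreas was at 45.3 and 42.9. The study lists Ptprn among the genes it picked from these arrays, so its rise is not independent evidence.

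Promoter sequence was at hand for 62 of the 78 genes, as the 300 bases from 250 before to 50 after a start site in RefSeq (GRCm38.p6). Searched on both strands were CAGATG and CATATG, E-box letters of the kind bHLH factors such as Ngn3 and Neurod1 bind, and TTCAGCACC and GGACAGC, letters from both ends of the RE1 element bound by REST, a repressor of neuronal and secretory genes. CAGATG was in 1 of the 29 promoters of genes that rose and in 19.2% of all 27025 genes with a promoter, CATATG was in 0 of 29 and 4.48%, and GGACAGC was in 2 of 29 and 7.59%. TTCAGCACC was in 2 of the 29, those of Ptprn2 and Unc13a, and in 0.433% of all genes. These 2 are shown because both hold the RE1 letters side by side or nearly so, and capitals mark TTCAGCACC and GGACAGC or their reverse complements, which do not overlap. The first is chr12:116485470-116485769 on the plus strand and the second chr8:71671708-71672007 on the minus strand, each read 5′ to 3′ along the gene. The letters describe these windows and say nothing of binding in EBs.
Ptprn2: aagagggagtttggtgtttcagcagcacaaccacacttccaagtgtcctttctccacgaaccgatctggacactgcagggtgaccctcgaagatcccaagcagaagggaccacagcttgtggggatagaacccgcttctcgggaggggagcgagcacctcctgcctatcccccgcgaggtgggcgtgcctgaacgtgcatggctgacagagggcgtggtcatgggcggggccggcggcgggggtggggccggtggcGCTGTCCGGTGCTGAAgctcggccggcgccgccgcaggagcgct
Unc13a: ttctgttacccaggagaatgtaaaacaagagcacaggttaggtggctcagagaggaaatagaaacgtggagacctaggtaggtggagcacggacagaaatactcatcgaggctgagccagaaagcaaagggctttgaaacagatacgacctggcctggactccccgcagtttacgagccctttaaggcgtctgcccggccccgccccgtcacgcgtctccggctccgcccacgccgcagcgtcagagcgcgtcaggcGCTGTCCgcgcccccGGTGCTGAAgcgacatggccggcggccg

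**Figure D2:**
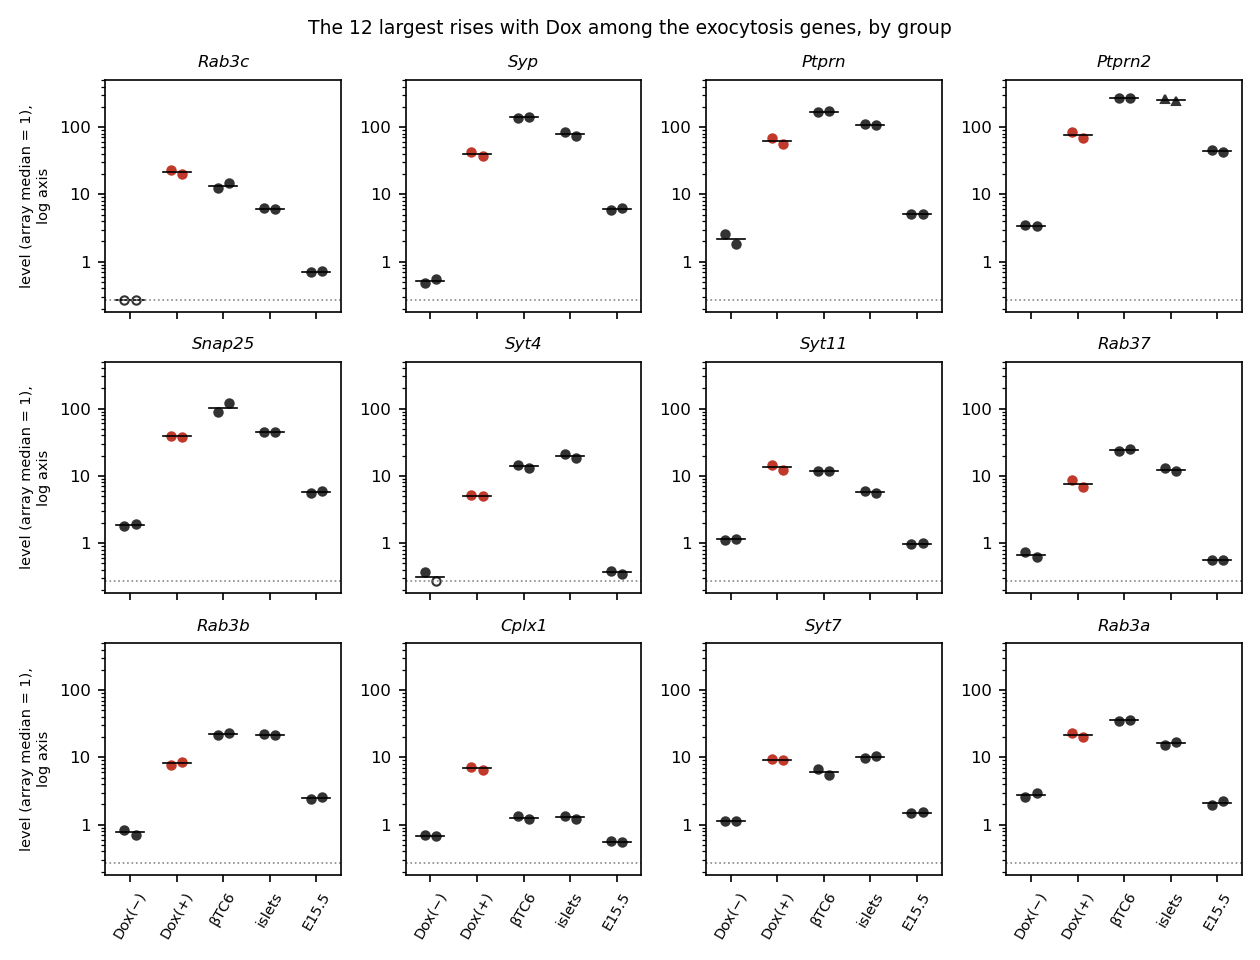
Log-scaled levels, as multiples of the median of each array, of the 12 exocytosis genes with the largest Dox rises, for Dox(−) EBs, Dox(+) EBs (red), islets, E15.5 pancreas and βTC6 cells. Points are single arrays, bars are means of the log2 levels, hollow points are at background, triangles are saturated and a dotted line marks the floor (0.27). In every panel both Dox(+) arrays lie above both Dox(−) arrays and both pancreas arrays, while their place beside βTC6 cells and islets varies from above (Cplx1, Rab3c) to below (Syp, Syt4).

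Among the 11 Rab30 to Rab39b genes, 7 rose, 1 fell and 3 did not pass the test. Rab37, a Rab of secretory granules in insulin and mast cells, was at 0.747 and 0.613 without Dox and at 8.64 and 6.76 with Dox, an 11.3-fold rise (log2 difference 3.497, standard error 0.14, adjusted p = 1.76e-08 by limma), against βTC6 readings of 23.0 and 25.0, islet readings of 12.9 and 11.9 and pancreas readings of 0.555 and 0.567. Rab30, a Golgi Rab, and Rab33a were of another kind. Rab30 rose 3.70-fold, from 2.02 and 2.55 to 9.06 and 7.79, and was at 0.580 and 0.551 in islets, 14.9-fold below Dox(+) EBs, with βTC6 readings of 2.11 and 1.75 and pancreas readings of 4.79 and 4.77. Rab33a, a Rab of neurons and lymphocytes, rose 3.41-fold, from 2.38 and 2.24 to 7.604 and 8.14, with 2.75 and 2.80 on βTC6 arrays, 0.990 and 0.905 on islet arrays and 3.70 and 4.20 on pancreas arrays. Rab39b, a neuronal Rab, rose 2.26-fold, from 2.22 and 2.67 to 5.97 and 5.08, with 1.13 and 0.947 on βTC6 arrays, 0.940 and 0.813 on islet arrays and 1.22 and 1.20 on pancreas arrays. For these 3 genes both Dox(+) arrays were the highest of the 10. At the dimmer Rab30 probe, which also rose, Dox(+) EBs were above islets but did not pass the test against βTC6 cells or E15.5 pancreas. Rab36, Rab39 and Rab31 rose 2.53-fold (against 1 measured Dox(−) array), 1.98-fold and 1.54-fold, and the other Rab36 probe did not pass the test.

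The falls with Dox were smaller than the largest rises, with the 8 largest between 1.58-fold and 3.15-fold. Unc13d (Munc13-4), a priming factor of cytotoxic granules and platelets, was at 7.85 and 7.20 without Dox and at 2.78 and 2.43 with Dox (log2 difference -1.53, standard error 0.13, adjusted p = 6.65e-06 by limma), and references lay below the Dox(+) level, at 1.87 and 1.57 on βTC6 arrays, 1.45 and 1.55 on islet arrays and 2.13 and 1.83 on pancreas arrays. Stxbp2 (Munc18-2), its partner in blood and epithelial cells, was at 20.0 and 21.3 without Dox and at 8.503 and 6.405 with Dox (log2 difference -1.48, standard error 0.13, adjusted p = 6.95e-06 by limma). For Stxbp2 the Dox(+) arrays were the lowest of the 10, below the islet levels of 13.0 and 11.5, the βTC6 levels of 16.3 and 18.2 and the pancreas levels of 14.6 and 15.1. Vamp8, a SNARE of platelets, mast cells and acinar cells, was at 17.3 and 19.1 without Dox and at 8.29 and 7.81 with Dox, 2.26-fold lower, and again both Dox(+) arrays were below all others, with βTC6 arrays at 24.0 and 35.2, islet arrays at 21.6 and 22.0 and pancreas arrays at 24.6 and 27.8. Vamp5, a SNARE of muscle, was 2.32-fold lower, at 5.11 and 5.29 without Dox and 2.11 and 2.38 with Dox, beside 1.55 and 1.91 on βTC6 arrays, 3.31 and 2.81 on islet arrays and 5.73 and 6.20 on pancreas arrays. Rab32, a Rab of melanosomes and platelet granules, was at 5.76 and 6.34 without Dox and at 3.63 and 4.01 with Dox, 1.58-fold lower, and its reference arrays ran from 1.98 in islets to 4.31 in βTC6 cells. Syt8 fell near the floor, from 0.613 and 0.763 to 0.281 and 0.27, and this was not seen with a floor of 1. Its reference arrays ran from 0.27 in islets to 0.532 in βTC6 cells. Of 8 platelet and megakaryocyte markers tested 7 fell, and of 8 blood markers 6 fell, 8 of 10 mesenchyme markers fell, 8 of 8 heart and muscle markers fell and 7 of 9 liver markers fell. By contrast, 3 of 7 endothelial markers rose and 0 fell, and 8 of 15 acinar markers rose and 0 fell. Of all genes 25% were higher and 23.5% lower. The summed level of 8 liver markers went from 537 and 539 without Dox to 59.8 and 71.7 with Dox, that of 7 blood markers from 51.8 and 55.0 to 6.74 and 8.34, that of 10 mesenchyme markers from 794 and 861 to 268 and 276, and that of 8 heart and muscle markers from 153 and 212 to 16.4 and 16.6. Their part in the falls of these genes was not tested.

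**Figure D3:**
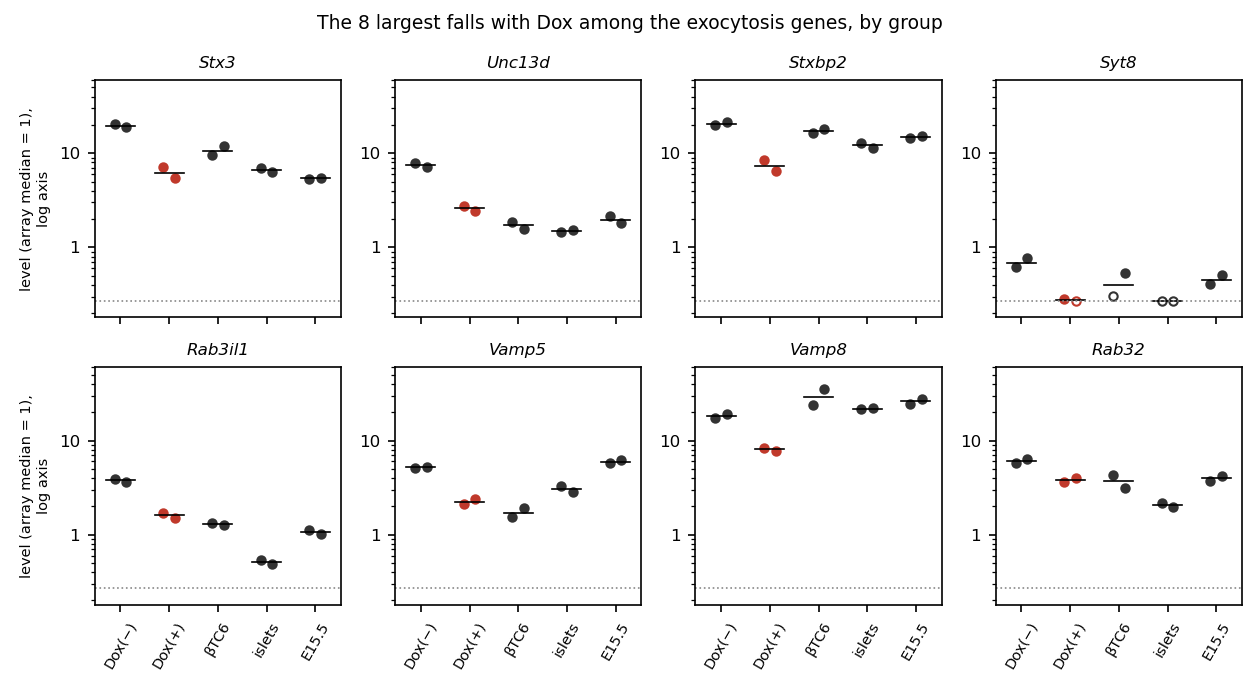
Log-scaled levels, as multiples of the median of each array, of the 8 exocytosis genes with the largest Dox falls, in the same 5 groups. Each point is 1 array, bars are means of the log2 levels, hollow points are at background and a dotted line marks the floor (0.27). Both Dox(+) arrays (red) lie below both Dox(−) arrays in every panel, and for Stxbp2 and Vamp8 also below all reference arrays.

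The brightest probes of genes that did not pass the test were those of Stx16, a trans-Golgi syntaxin, and Stx8, an endosomal one. Stx16 was at 51.3 and 50.4 without Dox and at 55.3 and 52.8 with Dox (log2 difference 0.09, standard error 0.10, adjusted p = 0.507 by limma), and quantile normalization made it a rise of 0.36 on the log2 scale. Stx8 was at 23.4 and 23.8 without Dox and at 20.3 and 20.4 with Dox (log2 difference -0.21, standard error 0.10, adjusted p = 0.116 by limma). Both read highest in βTC6 cells, Stx16 at 98.7 and 105 and Stx8 at 47.5 and 48.5. Islet and pancreas arrays ran from 31.0 to 60.4 for Stx16 and from 23.4 to 29.0 for Stx8. Stx11 and Stx19 were near the floor on most arrays, at 0.27 to 0.480, and carried little signal.

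Dox(+) EBs were next set against the 3 references, as the study did to place the induced cells beside pancreatic tissue. These 3 comparisons share the Dox(+) arrays. The slide numbers of the EB arrays, the pancreas arrays, and the βTC6 and islet arrays together, form separate ranges, and therefore slide range and tissue cannot be told apart here. Against E15.5 pancreas, 43 of 76 exocytosis genes were higher in Dox(+) EBs (56.6%) and 8 lower (10.5%), where 33% of all probes and 37.8% of all genes were higher and 26.9% and 26.4% lower. Against islets 25 of 75 were higher (33.3%) and 30 lower (40%), where 36.4% of probes and 42.2% of genes were higher and 31.6% and 29.5% lower. Against βTC6 cells 19 of 75 were higher (25.3%) and 35 lower (46.7%), where 25.5% of probes and 27.5% of genes were higher and 37.5% and 41.3% lower, and the split was 25 higher to 30 lower with normexp and quantile normalization. The counts of genes higher than in islets or βTC6 cells therefore lay near or under the share for all probes.

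The genes farthest above E15.5 pancreas were Rab3c (30.6-fold), Unc13c (16.7-fold), Syt4 (13.9-fold) and Rab37 (13.6-fold), which read 0.27 to 0.723 on both pancreas arrays. Farthest below were Rims2 (4.00-fold, not called at its dimmer probe), Unc13b (3.63-fold, with 1 pancreas array measured), Vamp8 (3.25-fold) and Vamp5 (2.66-fold). Unc13b, the Munc13 found in many tissues, read 0.352 and 0.27 without Dox, both at background, 0.27 and 0.335 with Dox, 0.754 and 0.853 on βTC6 arrays, 0.898 and 0.934 on islet arrays and 1.09 on the measured pancreas array, so its level was low throughout. Of the 16 synaptotagmins 9 were above E15.5 pancreas (56.2%) and 1 below (6.25%), beside 37.8% and 26.4% of all genes.

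Against islets the genes farthest above were Unc13c, Rab30, Rab33a (8.31-fold) and Rab39b (6.30-fold), and those farthest below were Stxbp5l, Unc13a, Rims2 (4.25-fold, not called at its dimmer probe) and Syt13 (4.00-fold). Syt13, which is known from endocrine progenitors and β cells, was at background without Dox and read 2.12 and 1.44 with Dox, with 6.85 and 12.4 on βTC6 arrays, 7.10 and 6.87 on islet arrays and 0.376 and 0.422 on pancreas arrays. All 4 vesicle membrane genes and both granule phosphatase-like genes were below islets, where 29.5% of all genes were lower. The 11 Rab30 to Rab39b genes made up 7 of the 25 genes above islets.

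Against βTC6 cells the genes farthest above were Rab38 (8.06-fold), Cplx1, Rab39b (5.33-fold) and Rab30 (4.37-fold), and those farthest below were Sv2b, Stxbp5l (20.1-fold), Sv2c (at least 9.45-fold) and Syt15 (5.84-fold). The dimmer probes of Rab30 and Syt15 and all 3 dimmer Stxbp5l probes were not called against βTC6 cells. Rab38, a Rab of lysosome-related organelles, read 3.90 and 3.56 with Dox and 4.72 and 3.94 without, but 0.457 and 0.469 in the βTC6 line, its islet arrays were apart at 1.21 and 2.88 and its pancreas arrays read 4.16 and 3.92. Of the 16 synaptotagmins 9 were below βTC6 cells (56.2%) and 3 above (18.8%), beside 41.3% and 27.5% of all genes.

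**Figure D4:**
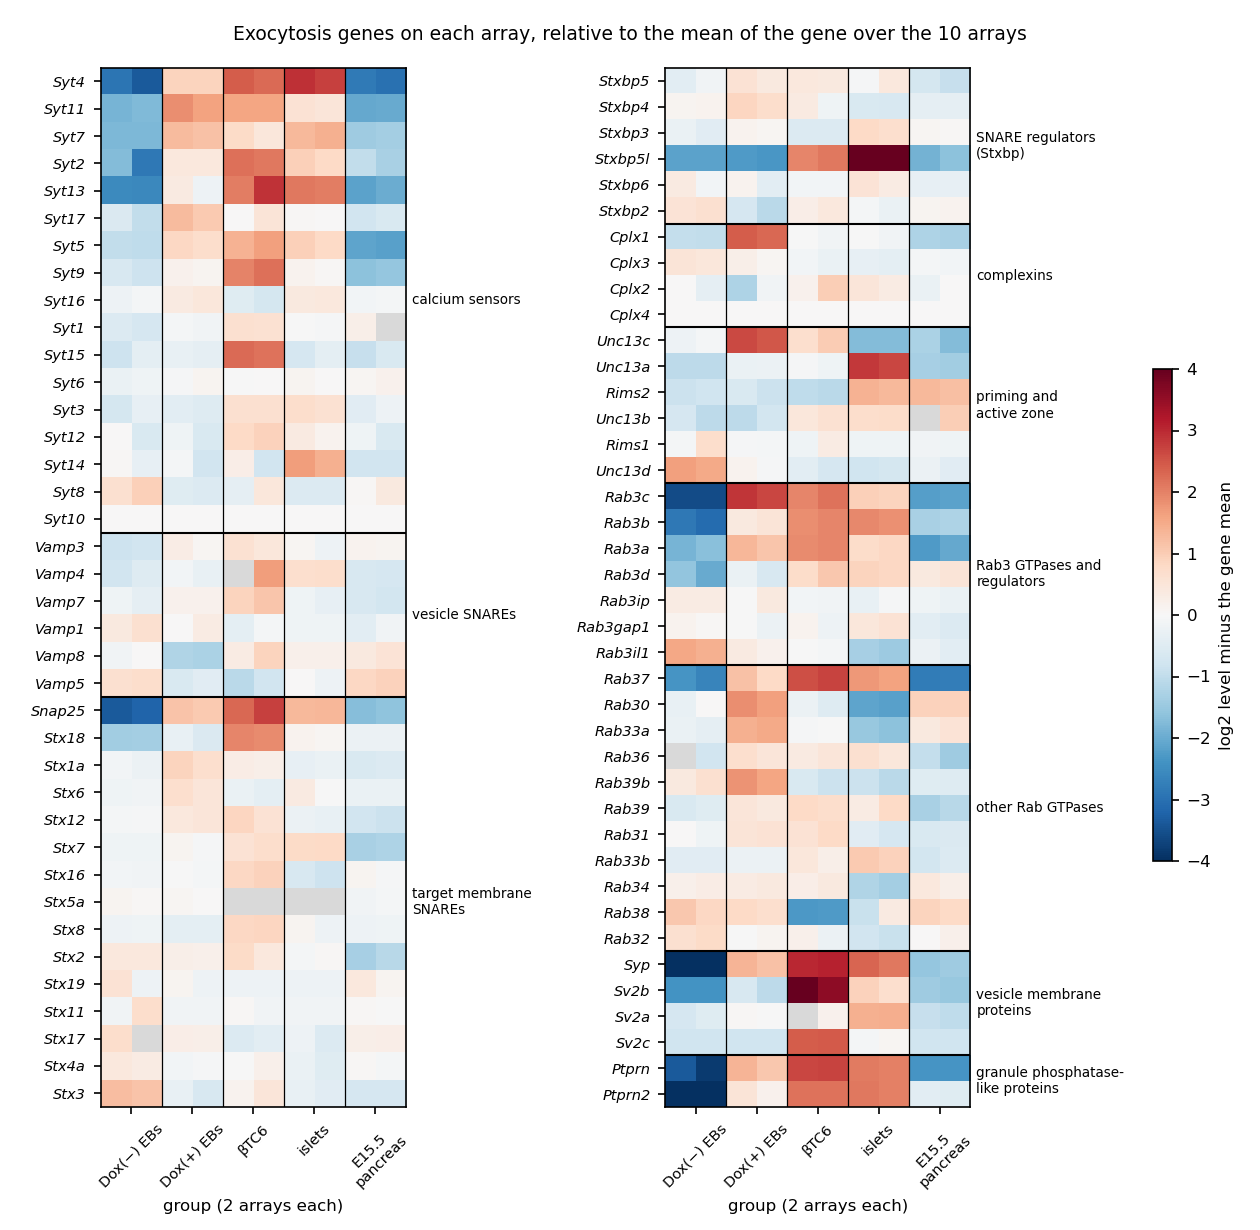
Log2 level of each of the 78 exocytosis genes on each array minus the mean of that gene over the arrays, grouped by role and, within a role, by the Dox difference. The role named calcium sensors holds all synaptotagmins, including those that do not bind calcium. Colour runs from −4 (blue) to 4 (red) and is cut off beyond, grey cells were not measured, and each group has 2 neighbouring columns. Genes such as Syp, Ptprn, Snap25 and Rab37 are blue in Dox(−) EBs and E15.5 pancreas and red in βTC6 cells and islets, while Cplx1, Unc13c, Rab30 and Rab39b are reddest in Dox(+) EBs.

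The islet and E15.5 pancreas arrays give a comparison that shares no array with the Dox comparison, though here too slide range and tissue cannot be told apart. Calls in both comparisons use the same limma estimate of spread over all 10 arrays, so the calls are not independent. The islet arrays also carried acinar markers, of which 10 of 15 were higher in islets than in pancreas and 2 lower. Of 75 exocytosis genes, 40 were higher in islets (53.3%) and 14 lower (18.7%), where 32.4% of all probes and 33.2% of all genes were higher and 32.5% and 35.7% lower. The genes farthest above were Stxbp5l (60.8-fold at its brightest probe), Syt4 (53.6-fold), Rab37 (22.1-fold) and Ptprn (21.2-fold), and those farthest below were Rab30 (8.45-fold), Rab33a (4.16-fold), Rab34 (3.00-fold) and Rab38 (2.16-fold). Dimmer Stxbp5l probes were also higher in islets, by only 2.81-fold and 3.14-fold, except the dimmest, at background on these arrays, which was not called. Rab34, a Rab of cilia and the Golgi, was at 8.13 and 7.30 in islets and at 21.6 to 24.7 on the other 8 arrays. Of the 40 genes that rose with Dox, 30 were higher in islets than in pancreas (75%), 3 (Rab30, Rab33a and Rab39b) were lower (7.5%) and 7 were not called, while of all 5822 probes that rose 47.5% were higher in islets and 23.2% lower. Of the 11 that fell with Dox, 0 were higher in islets, 8 were lower (72.7%) and 3 were not called, while of all 6336 probes that fell 22.5% were higher in islets and 49.7% lower. Across the 75 genes the 2 differences correlated with Pearson's r = 0.60 and Spearman's rho = 0.59, against r = 0.247 and rho = 0.235 across 28111 probes. The sets are unlike: exocytosis genes are read at their brightest probe, while these shares and correlations of all probes include dimmer probes and probes without a symbol. Values for all genes at 1 probe each are not given here. Genes are not independent replicates, and the correlations are given as a description. Stxbp5l and Unc13a lay far off this relation, with islet minus pancreas differences of 5.93 and 4.12 and Dox differences of -0.16 and 0.80.

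**Figure D5:**
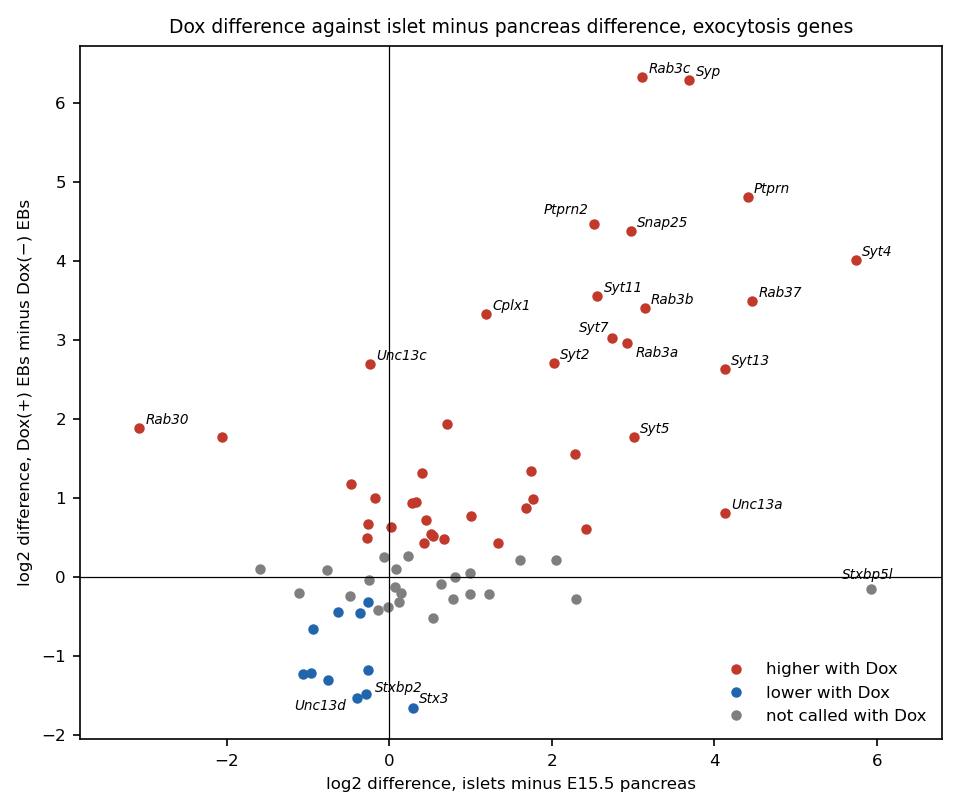
Log2 difference of Dox(+) minus Dox(−) EBs against log2 difference of islets minus E15.5 pancreas for 75 exocytosis genes, which share no array. Each point is 1 gene, red for genes higher and blue for genes lower with Dox and grey for genes not called with Dox. Most red points lie to the right of 0, with Rab30, Rab33a and Rab39b to its left, and Stxbp5l stands alone at the far right near a Dox difference of 0.

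βTC6 cells and islets lie in 1 range of slide numbers, and of 75 genes 35 were higher in βTC6 cells (46.7%) and 15 lower (20%), where 39.1% of all probes and 45.9% of all genes were higher and 27% and 25.2% lower. The genes farthest above islets were Sv2b (8.68-fold), Syt15 (6.67-fold), Unc13c (at least 6.00-fold) and Sv2c (5.37-fold). The dimmer Syt15 probe gave the opposite call, lower in βTC6 cells (log2 difference -1.22, adjusted p = 2.22e-05 by limma). Those farthest below were Unc13a (7.25-fold), Rims2 (5.23-fold), Stxbp5l (4.44-fold) and Rab38 (4.03-fold). The dimmer Rims2 probe also gave the opposite call, at 0.657 and 0.667 in βTC6 cells and 1.95-fold above islets (adjusted p = 0.00122 by limma), and the 3 other Stxbp5l probes were not called here. Unc13a, which has 1 probe, read low in both βTC6 cells and Dox(+) EBs beside islets. Syt9, the calcium sensor that insulin-secreting lines are known to use, read 11.8 and 13.5 in the βTC6 line, 3.28 and 3.03 in islets and 3.35 and 3.17 with Dox. At its dimmer probe βTC6 cells against islets was not called (log2 difference 0.02), and Dox(+) EBs were 2.14-fold below islets. Snap25 and Rab3a were 2.30-fold and 2.21-fold higher in βTC6 cells.

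Other genes of the same pathway are given beside the shares of all genes, 25% higher and 23.5% lower with Dox, and the lists were not tested against each other. Of 23 tested docking and priming genes, 13 rose (56.5%) and 3 fell (13%). Rimbp2, a scaffold that ties Rim proteins to calcium channels, was at 0.789 and 0.880 without Dox and at 44.0 and 40.2 with Dox (log2 difference 5.66, adjusted p = 6.33e-11 by limma), and the study lists it among the genes picked from these arrays. Cadps (CAPS1), a priming factor of dense-core granules, was at 0.350 and 0.434 without Dox and at 6.74 and 4.83 with Dox, and Rims3 was at 1.15 and 1.23 without Dox and at 14.6 and 14.4 with Dox. Rab27b, a granule Rab of exocrine cells and platelets, fell from 3.64 and 3.39 to 0.449 and 0.448. Of 18 further vesicle membrane genes 8 rose (44.4%) and 1 fell (5.56%), and Syn1, a synapsin of synaptic vesicles, went from background to 20.1 and 17.9 with Dox. Slc17a6, the glutamate transporter VGLUT2, was at background in Dox(−) EBs and in all 3 references and at 6.46 and 5.55 in Dox(+) EBs. Of 15 genes listed as other SNAREs, most of them of the Golgi and endosomes, 4 rose and 4 fell (26.7% each), near the shares of all genes. The largest rise on that list was of Snap91, from background to 9.25 and 8.05, which despite its symbol encodes the clathrin adaptor AP180 and no SNARE. The counts of that list include it. Of 7 exocyst subunits, which tether vesicles, 4 rose (57.1%) and 1 fell (14.3%). Of the 4 genes for SNARE disassembly Nsf, Napa and Napb rose, and Napg did not pass the test.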

How the data were processed

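Total RNA of 5 groups of 2 samples was hybridized to 1-colour CodeLink arrays. The deposited values are the authors' scaled intensity from CodeLink Expression Analysis 4.1.0.29054, that is, the spot mean minus the local background median, divided by the median of the array. The per-array files and the series table hold the same values (largest difference 0). The authors' removal of invalid probes and their later GeneSpring step were not repeated. The 1260 control spots were left out, leaving 34967 probes. Spots marked as contaminated, irregular or manufacturer-masked were treated as missing, while saturated spots stayed in. Values were floored at 0.27 and log2 transformed. The 28259 probes that some group had above background on each of its arrays were fitted with limma 3.58.1 in R 4.3.3, with 1 mean per group, a mean-variance trend and robust moderation, over all 10 arrays, with Benjamini-Hochberg adjustment. Where a group was at background on both arrays, or saturated on both, a fold is given as a bound. Tables and plots used pandas 2.3.3 and matplotlib 3.10.9 under Python 3.11.15 with numpy 2.4.6, and the fit was tested on simulated data. The number of arrays limits the precision.

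The genes, roles, pathway lists, marker lists and motifs were chosen with earlier results of these data known. Values on every array, or for a few genes the range over the reference arrays, are given for the 12 largest rises and 8 largest falls with Dox, for Snap25, Syp, Rims1, Rims2, Ptprn and Ptprn2, for the 4 largest differences in each direction of each other comparison, and for the 2 brightest genes not called with Dox, and up to 4 genes of each pathway list were named by their adjusted p. Other genes are named as members of their role, or as contrasts chosen after their values were seen. All 78 symbols equal the current RefSeq symbol. Alternatives were quantile normalization, normexp background correction with an offset of 50, floors of 0.1 and 1, no filter or a stricter filter on background, no trend, the EB arrays alone, the second probe of a gene, a minimum of 2-fold, the replicate number as a block, and each array left out in turn.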

Additional observations from a re-analysis of the deposited data

How the results depend on the processing

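Of 122 counts of genes called under the alternatives other than leaving out an array, 111 were within 1.5 times the main count. Asking for at least a 2-fold difference as well left 23 genes higher and 7 lower with Dox, 7 higher than βTC6 cells, 13 higher and 16 lower than islets, 5 lower than E15.5 pancreas, 5 lower in islets than in E15.5 pancreas, and 18 higher and 8 lower in βTC6 cells than in islets. Testing only probes above background on all arrays, which leaves fewer genes, gave 18 lower than islets and 5 lower than E15.5 pancreas. With 1 array left out at a time, where the lone array of a group was assumed to vary like the others, the genes higher and lower numbered 37 to 40 and 10 to 12 with Dox, 18 to 19 and 32 to 35 against βTC6 cells, 21 to 25 and 25 to 31 against islets, 38 to 44 and 6 to 9 against E15.5 pancreas, 34 to 40 and 9 to 16 for islets against pancreas, and 33 to 37 and 12 to 15 for βTC6 cells against islets. The 9 lower in islets came without islet replicate 2 and without E15.5 pancreas replicate 1, against 14 with all arrays. No shares of all genes are given at 2-fold, with the stricter filter or with an array left out. These counts therefore show only how the calls of the exocytosis genes move, and cannot be read against a background.

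Of 740 values of 37 named genes, 0 changed direction among those called and 726 kept their side of the threshold. The Dox calls lost were those of Rab32 and Unc13a at 2-fold, of Syt8, Syt13 and Sv2b with a floor of 1, and of Snap25 at its second probe. Calls gained were those of Stx16 under quantile and normexp normalization, Stx8 without either islet array and with the EB arrays alone, Rims1 without Dox(−) replicate 1 (log2 difference -0.78), and Sv2c under normexp and with a floor of 0.1. The cause was not tested. Arrays with the same replicate number did not deviate together (correlations -0.08 to 0.07). This cannot settle whether samples of the same number were prepared together, because other variation between arrays may be larger. With the replicate number as a block, 40 genes were higher and 10 lower with Dox, and of all probes 5716 were higher and 6168 lower. Low signal limits Rims1, Stx11, Stx19, Syt8 and Sv2b, which lie at or near background in most groups.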

Other observations

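The further pathway genes were also compared with the references. The list of 15 other SNAREs also counts Snap91, which is no SNARE. Of these 15 genes, 11 read lower (73.3%) and 2 higher (13.3%) with Dox than in the βTC6 line, beside 41.3% and 27.5% of all genes. That line exceeded islets for 12 (80%) and fell under them for 2 (13.3%), beside 45.9% and 25.2% of all genes. Ykt6, a SNARE of the early secretory pathway, read 4.36 and 3.62 with Dox, 10.4 and 12.0 in the βTC6 line and 2.78 and 2.53 in islets. Of the 23 docking and priming genes, 15 exceeded the E15.5 pancreas in Dox(+) EBs (65.2%) and 3 were under it (13%), beside 37.8% and 26.4% of all genes. Against islets 9 were higher (39.1%) and 11 lower (47.8%), beside 42.2% and 29.5% of all genes. The share above islets thus lay near that of all genes. Rimbp2 had βTC6 readings of 150.4 and 162, islet readings of 103 and 92.3 and pancreas readings of 22.2 and 20.5, so that Dox(+) EBs lay between the pancreas and the endocrine references.

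Synpr, which encodes synaptoporin, a relative of synaptophysin, was at background in Dox(−) EBs and at 8.49 and 8.01 with Dox, and βTC6 arrays read 21.5 and 17.7, islet arrays 18.9 and 16.2 and pancreas arrays 1.99 and 1.91. Napg, which encodes a SNAP protein of SNARE disassembly, was at 28.2 and 30.6 in islets and at 3.66 to 9.98 on the other 8 arrays.

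Of the 20 other probes of the 17 genes with more than 1 probe that could be compared with the main probe, 13 gave the same call with Dox and 0 the opposite call. In the other comparisons opposite calls came from 3 probes against βTC6 cells (of Rab3c, Rims2 and Syt7), 2 against E15.5 pancreas (both of Stxbp5l), 0 against islets, 0 of 21 for islets against pancreas and 3 of 21 for βTC6 cells against islets (of Rims2, Syt15 and Syt7).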
